A study of Mus musculus with 8 samples.

Results

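The genes described here carry the names of subunits of voltage-gated sodium channels, voltage-gated calcium channels and hyperpolarization-activated (HCN) channels. They were taken by name, as every symbol in the deposited count table that begins with Scn and a digit, with Cacna or Cacnb, or with Hcn and a digit, whatever their values. The rule found 36 genes of 17983, of which 34 had enough reads to be tested. All samples were labelled as whole brains of male db/db mice, which lack a working leptin receptor and become obese and diabetic. Defining genes of the cerebellum were near 0 in all 8 libraries, which goes against a whole brain that includes cerebellum: Gabra6 was at most 0.13 CPM (counts per 1e6 reads, after TMM scaling), Pcp2 at most 0.44, Fat2 at most 0.45 and Cbln3 at most 1.44 CPM. The 4 control libraries came from animals on a normal diet and the 4 ketogenic libraries from animals given a ketogenic diet, rich in fat and poor in carbohydrate, between 9 weeks and 6 months of age. Both groups thus carried the db/db genotype, and no lean group was analysed here. The labels do not say in words that each library is a separate animal, so p-values measure the spread between these libraries, which may be technical.

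Sodium channels open when a neuron depolarizes and carry the upstroke of the action potential, through a large pore-forming alpha subunit joined to smaller beta subunits. Calcium channels of the Cav1 and Cav2 classes pair an alpha1 pore with an intracellular beta subunit and an extracellular alpha2delta subunit. Calcium channels admit the calcium that triggers transmitter release (Cav2), couples activity to gene expression (Cav1) or drives burst firing near rest (Cav3). HCN channels open on hyperpolarization, are gated by cyclic nucleotides and set resting conductance and rhythm.

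Several sodium channel alpha genes sit side by side in the genome. On chromosome 2 (GRCm38, GENCODE M21), Scn3a, Scn2a, Scn1a, Scn9a and Scn7a lie in that order between 65457118 and 66784914. A read inside an identical stretch cannot be assigned to 1 gene by its letters. Of all 50-base windows in the transcript with the longest coding sequence, 8.53% of those of Scn3a, 7.58% of Scn2a, 5.48% of Scn1a and 5.36% of Scn9a occurred in another member, and 0% of those of Scn7a. The share was 2.09% in Scn10a, a sodium channel alpha gene on chromosome 9. Among calcium channel genes the share was at most 0.228% (Cacna1g), and it was 0% in Cacna1b and in all calcium beta and alpha2delta genes. The effect of these stretches on the counts was not tested.

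Total counts ran from 34450860 to 40233361 per library. On the first principal component of log2 CPM, ketogenic replicate 3 stood apart at 34.4, where the other ketogenic libraries had 2.90 to 11.2 and the control libraries -22.7 to -5.94. All 10 pan-neuronal markers were detected, with a summed level of 10150.2 to 11402 CPM in control and 9424 to 10902 CPM in ketogenic libraries, and 1 of 10, Syn1, was lower in edgeR's test. In bulk tissue, fewer cells of a type and less RNA per cell cannot be told apart. The 7 thalamic markers summed to 258 CPM in ketogenic replicate 3 and to 390.3 to 449.6 CPM in the other 7 libraries. The 8 hypothalamic markers summed to 35.6 CPM in ketogenic replicate 3, to 139.8 CPM in ketogenic replicate 2 and to 56.5 to 91.2 CPM in the other 6 libraries. Of 19 lists of cell type and region markers, summed CPM did not overlap between diets in 4. The list of cerebellar granule cell markers summed lower in ketogenic libraries (140.5 to 166 against 168 to 229 CPM). Etv1 was the largest part, at 105 to 137 CPM in control and 79.5 to 104 CPM in ketogenic libraries. Zic1 ran from 51.9 to 72.1 CPM in control and was at 52.1, 65.5, 23.5 and 72.6 CPM in ketogenic replicates 1 to 4. Neurod1 was at 10.2 to 19.7 and 10.9 to 12.6 CPM, and the granule cell genes given above were near 0. The sums of hippocampal (429 to 466 against 398 to 422), erythroid (69.4 to 114 against 15.3 to 52.4) and muscle markers (9.67 to 12.1 against 6.21 to 9.46) were higher. Each of these 4 had an exact two-sided permutation p of 0.0286, the smallest that 4 against 4 libraries can give, and an adjusted p of 0.136 over the 19 lists. Of 5 erythroid markers, 4 were higher (Hba-a1, Hbb-bs, Hbb-bt and Alas2) and 0 lower in edgeR's test at an adjusted p under 0.05. Of 8 astrocyte markers, 4 were lower (Aqp4, Gfap, Aldh1l1 and Gja1) and 1, Fgfr3, was higher in edgeR's test at that threshold. The astrocyte sum overlapped (3829 to 4585 CPM in control and 3645 to 4200 CPM in ketogenic libraries). In the remaining lists, Slc32a1, Ppp1r1b, Wfs1 and Tmem119 were called higher, and Neurod6, Etv1, Opalin and Rgs5 lower. Over all tested genes, 3.3% were called higher and 3.22% lower. The part of these markers in the channel genes' values was not tested.

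Expression per length was concentrated in 3 of the sodium channel alpha genes. Scn2a had 46.7 ± 1.80 FPKM (fragments per kilobase and per 1e6 reads, as deposited; SD, n = 4) in control and 45.9 ± 2.87 FPKM in ketogenic libraries. Scn8a followed at 26.5 ± 1.48 and 27.4 ± 1.6 FPKM, and Scn1a at 24.4 ± 1.71 and 22.6 ± 0.10 FPKM, with Scn8a and Scn1a overlapping in control libraries. These are the main alpha subunits of adult central neurons, and in control libraries they held 45.8%, 26.0% and 23.9% of the summed alpha FPKM. Scn3a, best known from the embryonic brain, had 2.21 ± 0.245 and 2.21 ± 0.175 FPKM. The sodium beta genes Scn2b, Scn3b and Scn4b had control means of 81.4 ± 4.68, 50.1 ± 2.52 and 46.5 ± 5.58 FPKM, and the libraries of Scn3b and Scn4b overlapped.

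The calcium channel pore genes had lower levels per length than these sodium beta genes. Cacna1a, the P/Q-type pore that dominates release at most central synapses, had 16.7 ± 1.41 FPKM in control and 16.4 ± 0.93 FPKM in ketogenic libraries. Cacna1c led the L-type genes at 7.11 ± 0.22 and 7.36 ± 0.35 FPKM, and Cacna1i the T-type genes at 7.93 ± 0.92 and 8.91 ± 0.64 FPKM. Cacna2d3 led the alpha2delta genes at 24.98 ± 1.76 and 28.3 ± 0.85 FPKM. Cacnb3 led the calcium beta genes at 46.7 ± 1.87 and 51.8 ± 4.48 FPKM, ahead of Cacnb1 at 41.3 ± 1.09 and 44.3 ± 1.67 FPKM. Among HCN genes Hcn2 had 43.4 ± 3.05 and 44.7 ± 3.92 FPKM, or 69.9% ± 1.97 of the family's summed FPKM in control and 72.6% ± 1.63 in ketogenic libraries. The order among Cacna1a, Cacna1b and Cacna1e, and among the alpha2delta genes, depends on the gene length used, as given among the closing observations.

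**Figure D1:**
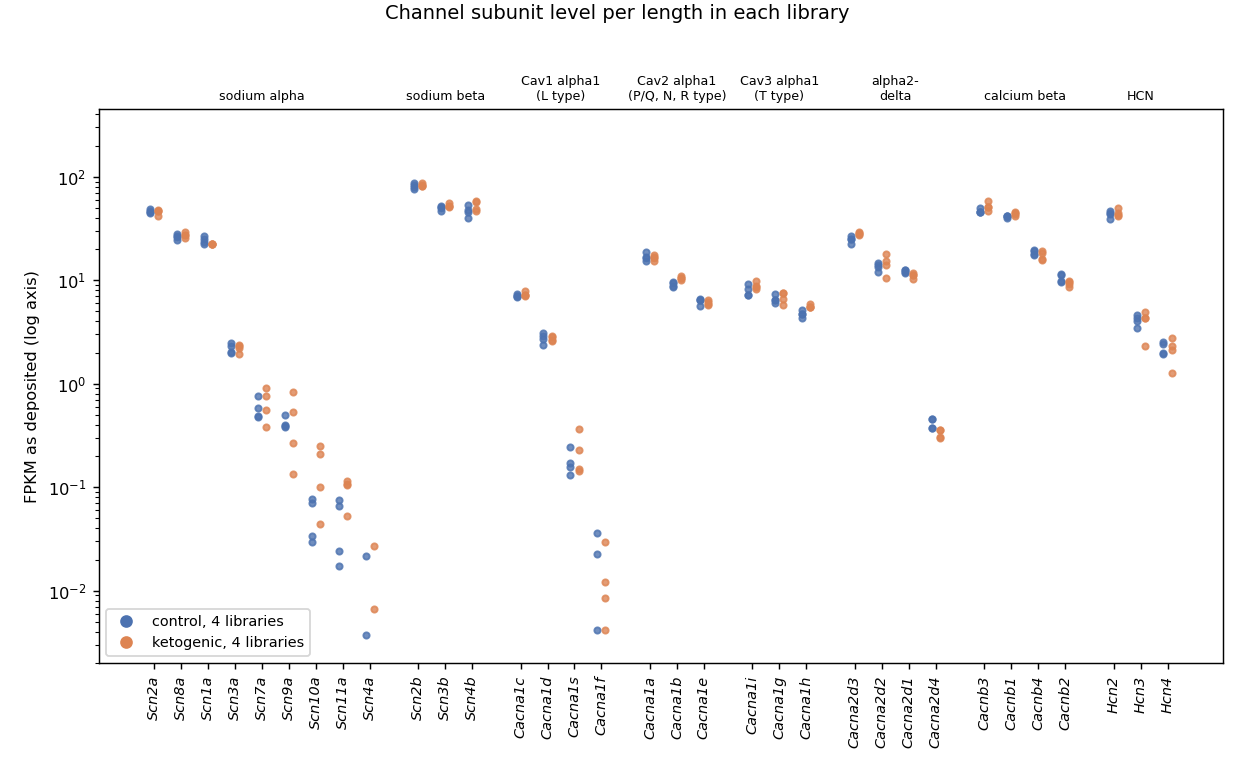
FPKM as deposited (log axis) of 33 channel subunit genes, grouped by family and ordered by mean level, with each point 1 library (4 control, 4 ketogenic); 5 values of 0 are not drawn. Scn2b lies highest of the genes drawn, and Scn4a and Cacna1f lie lowest.

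In this set 1 gene passed, and differences between diets had a median size close to that over all tested genes. In edgeR's quasi-likelihood test at an adjusted p under 0.05, 1 of 34 tested members (2.94%) was higher in ketogenic brains and 0 were lower, where 6.52% of all 14895 tested genes passed, 3.3% higher and 3.22% lower. At an unadjusted p under 0.05 there were 6 members higher and 4 lower, or 29.4%, and 24.6% of all tested genes. The diet groups did not overlap in CPM for 5 members, or 14.7%, and for 13.7% of all tested genes. The last 2 shares were close to those over all genes, and the first was below. DESeq2's Wald test had 4 members higher and 0 lower, with 11.9% of all genes called. The median log2 difference (ketogenic minus control) was 0.05 over the 34 members and -0.0029 over all tested genes. Without regard to sign, the median was 0.11 over the members and 0.13 over all tested genes. Among the 25 members in the plot of differences, each with a mean of at least 10 CPM, fitted differences lay between -0.19 and 0.23, with standard errors (SE) of 0.05 to 0.17. The outermost bounds of their 95% intervals were -0.43 and 0.38.

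**Figure D2:**
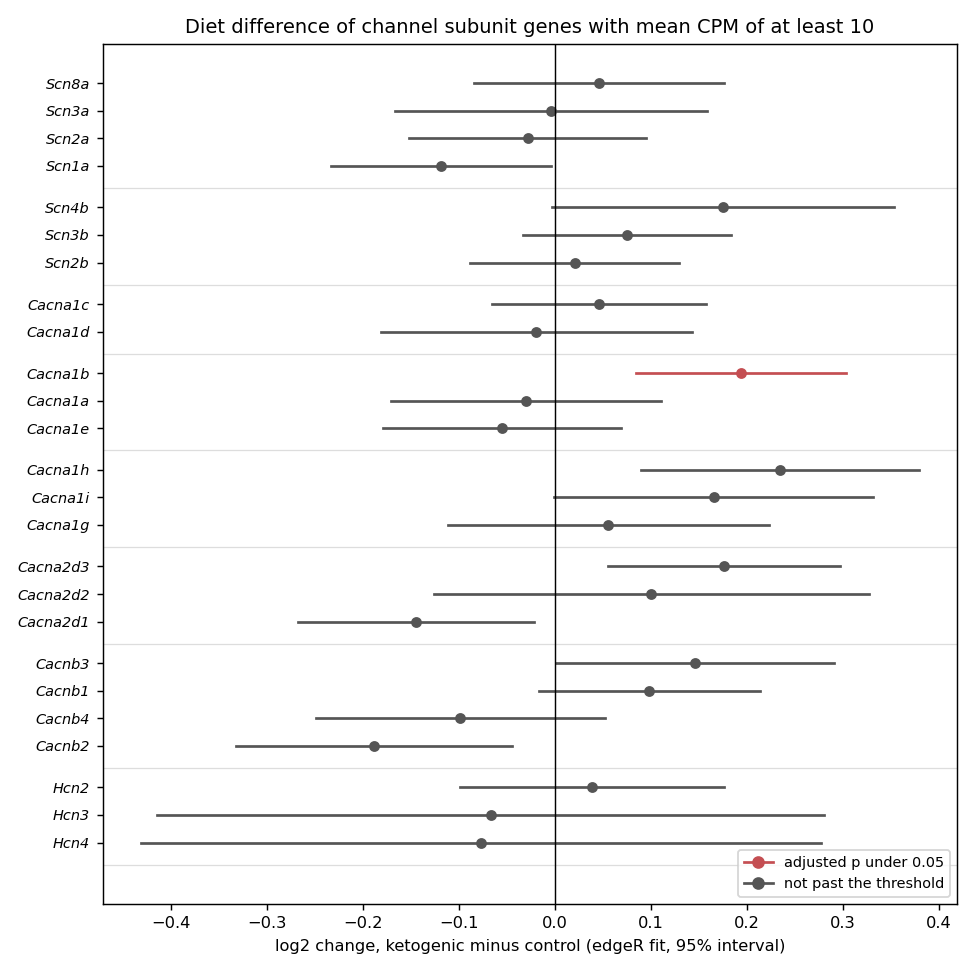
Fitted log2 difference (ketogenic minus control) with its 95% interval from edgeR for 25 channel subunit genes with a mean of at least 10 CPM, grouped by family; red marks an adjusted p under 0.05. Cacna1b is the 1 gene in red, and 7 intervals lie wholly on 1 side of 0, with 4 above and 3 below, before any adjustment for the number of genes.

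Cacna1b, the N-type pore of presynaptic calcium channels, was the member that rose. The gene lies at chr2:24603887-24763152 on the minus strand. Its level was 102, 108, 102 and 111 CPM in control replicates 1 to 4 and 122, 124, 119 and 119 CPM in ketogenic replicates 1 to 4. Every ketogenic library lay above every control library. The means were 106 ± 4.72 and 121 ± 2.43 CPM (SD), and the fitted log2 difference was 0.19 ± 0.05 SE with an edgeR adjusted p of 0.0383, or 1.14-fold. The call rested on most single libraries: leaving out control replicate 1, 2 or 3 gave adjusted p of 0.116, 0.084 and 0.0985, and leaving out ketogenic replicate 1, 2 or 4 gave 0.0759, 0.109 and 0.0584. It held without control replicate 4 (0.0153) and without ketogenic replicate 3 (0.0491), and was lost after correction for GC content and length (log2 difference of 0.18, adjusted p = 0.0834).

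The other Cav2 pores had no call. Cacna1a had a log2 difference of -0.03 ± 0.07 and Cacna1e, the R-type pore, one of -0.06 ± 0.06 (edgeR adjusted p = 0.825 and 0.616). Cacna1b held 28.5% ± 1.5 of the summed FPKM of these 3 genes in control and 31.9% ± 1.36 in ketogenic libraries, without overlap. Cacna1e held 19.5% ± 0.78 and 18.3% ± 0.26, also without overlap, and Cacna1a 52.0% ± 1.6 and 49.8% ± 1.38. These shares are descriptions and were not tested.

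All 3 T-type genes, which encode the low-voltage pores of burst firing, had higher fitted levels in ketogenic libraries, and 0 passed, with 1 of 3 at an unadjusted p under 0.05 in edgeR and 1 called by DESeq2. The shares over all tested genes were 24.6% at that unadjusted p in edgeR and 11.9% called by DESeq2. Cacna1h came nearest to the threshold, at 56.8, 50.8, 47.3 and 50.6 CPM in control replicates 1 to 4 and 59.7, 58.4, 65.8 and 57.9 CPM in ketogenic replicates 1 to 4. Its groups did not overlap, although control replicate 1 lay just under ketogenic replicate 4. The log2 difference was 0.23 ± 0.07 (adjusted p = 0.0513 in edgeR and 0.0181 in DESeq2), and 0.17 after correction for GC content and length (adjusted p = 0.172). Its exons overlap those of Tpsg1 on the other strand over 1.62% of their length, and whether the counting used strand was not stated in any source here. Cacna1i and Cacna1g had log2 differences of 0.17 ± 0.08 and 0.06 ± 0.08 (edgeR adjusted p = 0.207 and 0.719).

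The L-type genes, of which Cacna1c and Cacna1d carry most neuronal L-type current, lay near 0. The log2 difference was 0.05 ± 0.05 for Cacna1c, with a 95% interval from -0.07 to 0.16, and -0.02 ± 0.08 for Cacna1d, with an interval from -0.18 to 0.14.

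The alpha2delta genes, whose products promote surface delivery of calcium channels, went in both directions without a call in edgeR, with 1 higher and 1 lower of 4 at an unadjusted p under 0.05 and 1 higher in DESeq2. For comparison, 24.6% of all tested genes reached that unadjusted p in edgeR and 11.9% were called by DESeq2. Cacna2d3 was at 87.4, 94.9, 96.9 and 102 CPM in control replicates 1 to 4 and at 107, 102, 111 and 109 CPM in ketogenic replicates 1 to 4. The groups did not overlap, with control replicate 4 just under ketogenic replicate 2. The log2 difference was 0.18 ± 0.06 (adjusted p = 0.0712 in edgeR and 0.0336 in DESeq2). Cacna2d1, which encodes a receptor of gabapentin, was at 274, 283, 267 and 282 CPM in control and 252, 249, 273 and 225 CPM in ketogenic replicates 1 to 4, with ketogenic replicate 3 among the control values. Its log2 difference was -0.15 ± 0.06 (edgeR adjusted p = 0.137), and -0.03 after correction for GC content and length. Cacna2d2, at a log2 difference of 0.10 ± 0.11, ran from 61.8 CPM in ketogenic replicate 3 to 99.7 CPM in ketogenic replicate 4. Cacna2d4 was low, at 2.35 to 2.94 CPM in control and 1.90 to 2.30 CPM in ketogenic libraries, without overlap (log2 difference of -0.33 ± 0.21, edgeR adjusted p = 0.36).

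The calcium beta genes, whose products bring the pore to the membrane and shape its gating, also went both ways, with 0 of 4 past the threshold in edgeR or DESeq2 and 1 higher and 1 lower at an unadjusted p under 0.05. That unadjusted p in edgeR was reached by 24.6% of all tested genes. Cacnb3 was at 206, 199, 219.7 and 201 CPM in control and 228, 220.2, 262 and 203 CPM in ketogenic replicates 1 to 4, highest in ketogenic replicate 3. Its log2 difference was 0.15 ± 0.07, and that of Cacnb1 was 0.10 ± 0.05 (edgeR adjusted p = 0.2 and 0.285). Cacnb2 was at 96.3, 91.8, 79.0 and 80.5 CPM in control and 79.1, 74.5, 72.4 and 78.9 CPM in ketogenic replicates 1 to 4. The groups met at control replicate 3 and ketogenic replicate 1. Its log2 difference was -0.19 ± 0.07 (edgeR adjusted p = 0.0993), and -0.12 after correction for GC content and length. Cacnb4, the beta subunit whose loss causes the lethargic mouse, had a log2 difference of -0.10 ± 0.07, which was 0.04 after that correction. Of its exon bases, 16.0% overlap A430018G15Rik on the other strand.

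**Figure D3:**
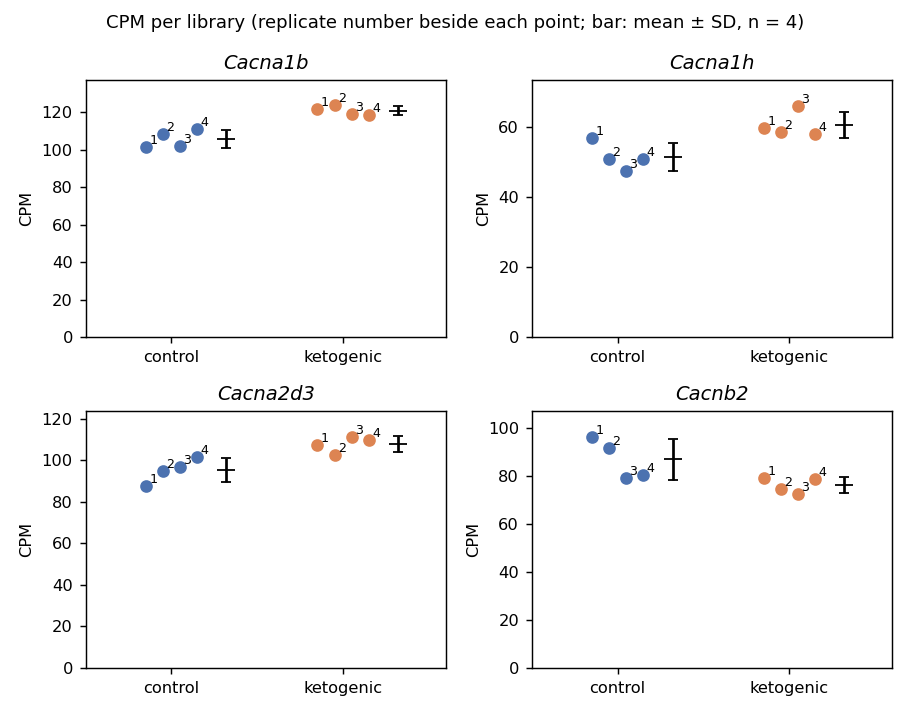
CPM in each library (points, with replicate numbers) for Cacna1b, which passed, and for Cacna1h, Cacna2d3 and Cacnb2, which did not, with mean ± SD bars (n = 4) and axes from 0. The diet groups separate for the first 3 genes and overlap for Cacnb2.

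The main sodium pores were close to level between diets. Scn2a, known from developing and unmyelinated axons, had 412, 418, 403 and 433 CPM in control and 431, 408, 431 and 364 CPM in ketogenic replicates 1 to 4. Its log2 difference was -0.03 ± 0.06, with a 95% interval from -0.15 to 0.09 (edgeR adjusted p = 0.81). Scn8a, the pore of nodes of Ranvier and mature axon initial segments, had a log2 difference of 0.05 ± 0.06, with an interval from -0.08 to 0.18. Scn1a, the pore mutated in Dravet syndrome and prominent in fast-spiking interneurons, was at 197, 227, 204 and 214 CPM in control and 195, 189.9, 200.1 and 191 CPM in ketogenic replicates 1 to 4. Control replicate 1 lay inside the ketogenic range, and the log2 difference was -0.12 ± 0.05 (edgeR adjusted p = 0.187) and -0.02 after correction for GC content and length. Pvalb, a marker of those interneurons, ran from 62.6 to 64.4 CPM in control and from 60.4 to 75.3 CPM in ketogenic libraries. Scn3a had a log2 difference of -0.0043 ± 0.08.

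Sodium beta genes encode accessory subunits with roles in gating and adhesion. Of Scn2b, Scn3b and Scn4b 0 passed in edgeR or DESeq2, with 0 at an unadjusted p under 0.05 in edgeR. Scn4b, whose product supports resurgent current, had a log2 difference of 0.18 ± 0.08 (edgeR adjusted p = 0.211), with ketogenic replicate 3 highest at 285 CPM. Scn3b and Scn2b had log2 differences of 0.07 ± 0.05 and 0.02 ± 0.05.

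Of Hcn2, Hcn3 and Hcn4 0 passed in edgeR or DESeq2, with 0 at an unadjusted p under 0.05 in edgeR. Hcn2, prominent in thalamic relay neurons, had a log2 difference of 0.04 ± 0.06, with a 95% interval from -0.10 to 0.18.

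Several less abundant members were lowest in ketogenic replicate 3. Hcn4, the slow channel of thalamus and cardiac pacemaker, was at 13.1, 15.7, 12.8 and 16.5 CPM in control and 15.1, 13.6, 8.53 and 17.9 CPM in ketogenic replicates 1 to 4. Hcn3 was at 14.6, 13.3, 11.4 and 15.1 CPM in control and 14.2, 13.9, 7.94 and 15.9 CPM in ketogenic replicates 1 to 4. For both genes the other 3 ketogenic libraries lay within or just above the control range. The log2 differences of Hcn3 and Hcn4 were -0.07 ± 0.16 and -0.08 ± 0.17 with all libraries, and 0.11 and 0.10 without ketogenic replicate 3, with no call either way. Of the exon bases of Hcn3, 17.1% overlap Pklr on the other strand.

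Scn9a, known from pain-sensing neurons, was at 3.81 to 4.94 CPM in control and at 2.67, 8.19, 1.36 and 5.21 CPM in ketogenic replicates 1 to 4. Its ketogenic libraries thus lay on both sides of the control range. Its log2 difference was 0.06 ± 0.36. Scn7a was at 3.53 to 5.55 CPM in control and at 5.57, 6.56, 2.85 and 3.98 CPM in ketogenic replicates 1 to 4. The log2 difference of Scn7a was 0.16 ± 0.23 (edgeR adjusted p = 0.719). The low thalamic and hypothalamic marker sums given above were in ketogenic replicate 3, and their part in these values was not tested.

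**Figure D4:**
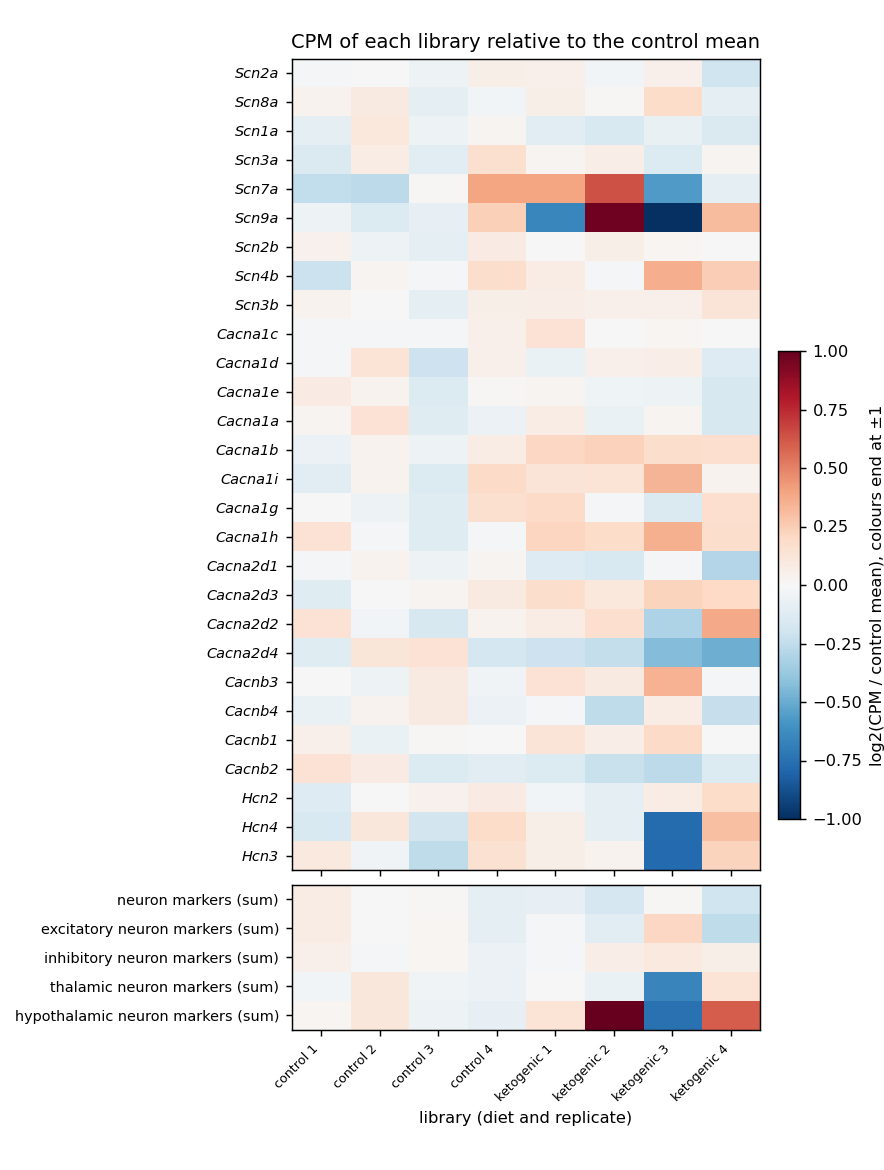
Map of log2(CPM / control mean) in each of 8 libraries for 28 channel subunit genes with a mean of at least 2 CPM (top) and for summed markers of 5 neuron classes (bottom); colours end at ±1. Ketogenic replicate 3 is blue for Scn7a, Scn9a, Hcn3, Hcn4 and Cacna2d2 and for thalamic and hypothalamic markers, and Cacna1b is pale red in all 4 ketogenic libraries.

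The members that follow had few counts. Scn10a, a pore of sensory ganglia, had 10, 24, 22 and 10 counts in control and 15, 73, 83 and 33 counts in ketogenic replicates 1 to 4. Ketogenic replicate 1 lay within the control range, and the log2 difference was 1.51 ± 0.52 (edgeR adjusted p = 0.0861), with a call when that library was left out (0.0462). Scn11a, another sensory pore, had 4 to 16 counts in control and 12 to 26 in ketogenic libraries, with a log2 difference of 1.04 ± 0.53 (edgeR adjusted p = 0.235). The summed level of 6 peripheral nerve markers was 27.8 to 36.2 CPM in control and 23.6 to 30.6 CPM in ketogenic libraries. Most of that sum was Pmp22 (20.4 to 30.7 CPM), and of the sensory neuron genes in the list Prph was at 2.06 to 4.07 CPM, Calca at 0.35 to 1.48 CPM and Trpv1 at 0.026 to 0.28 CPM over all 8 libraries. Cacna1s, the skeletal muscle pore, had 31 to 58 counts in control and 37 to 92 in ketogenic libraries. The muscle markers, whose sum was higher in ketogenic libraries as given above, included Acta1 at 4.06 to 6.59 CPM in control and 5.26 to 8.59 CPM in ketogenic libraries, Myh4 at 0.32 to 1.23 and 1.08 to 2.20 CPM, and Ckm at most at 0.29 and 0.026 CPM. Their part in the Cacna1s counts was not tested. The 2 members left untested were Scn4a, the skeletal muscle sodium pore, with 0 to 6 counts in control and 0 to 8 in ketogenic libraries, and Cacna1f, a retinal pore, with 0 to 8 and 1 to 7 counts.

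Genes for partners of these channels came from separate lists of 52 genes, of which 49 were tested. Of these 3 were higher and 1 was lower, or 8.16%, against 6.52% of all tested genes, with a median log2 difference of -0.0056. Among 16 sodium channel and axon initial segment partners 1 rose and 1 fell, or 12.5%, against the same 6.52%, with a median of -0.03. Sptbn4, the spectrin that anchors sodium channels at initial segments and nodes, was at 125, 130.3, 132 and 136 CPM in control and 162, 151, 162 and 158 CPM in ketogenic replicates 1 to 4. The groups were well apart, with a log2 difference of 0.27 ± 0.05 (edgeR adjusted p = 0.0107). Its call held with each of the 8 libraries left out in turn (highest adjusted p = 0.0431). It was lost after correction for GC content and length (0.20, adjusted p = 0.0646) and without ketogenic replicates 3 and 4 together (0.0791). Ank3, which encodes the ankyrin that binds both Sptbn4's product and the sodium channels, had a log2 difference of -0.06 ± 0.06.

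Fgf13, which encodes an intracellular protein that binds the sodium channel tail, fell by 0.23 ± 0.07 on the log2 scale (edgeR adjusted p = 0.0499). It was at 213, 201, 209 and 172 CPM in control and 179.8, 166, 173 and 161 CPM in ketogenic replicates 1 to 4, so that control replicate 4 lay inside the ketogenic range. Leaving out any 1 library other than control replicate 4 ended the call (adjusted p of 0.061 to 0.157), as did correction for GC content and length (0.14). Its relatives Fgf14, Fgf12 and Fgf11 had log2 differences of -0.25 ± 0.08, -0.14 ± 0.06 and -0.22 ± 0.10. Of these 3, 0 were called in edgeR, all 3 had an unadjusted p under 0.05, and Fgf14 was called by DESeq2. Over all tested genes, 24.6% had an unadjusted p under 0.05 in edgeR and DESeq2 called 11.9%. Among the 16 sodium channel and axon initial segment partners, 1 was higher and 5 were lower at an unadjusted p under 0.05, or 37.5%.

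Among 23 tested calcium channel partners 1 rose and 0 fell, or 4.35%, against 6.52% of all tested genes. At an unadjusted p under 0.05 there were 5 higher and 3 lower, or 34.8%, against 24.6% of all tested genes. The gene that rose was Cacng8, which shares the calcium channel gamma name but is best known as an auxiliary subunit of AMPA receptors, at 57.2 ± 4.19 and 68.7 ± 5.34 CPM (log2 difference of 0.26 ± 0.07, edgeR adjusted p = 0.0375). Ketogenic replicate 4, at 61.1 CPM, lay below control replicate 4, at 63.4 CPM. The Cacng8 call held without either of these and was lost without any other 1 library (adjusted p of 0.0579 to 0.118), and after correction for GC content and length (0.181).

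Among 6 HCN partners 1 rose and 0 fell, or 16.7%, against 6.52% of all tested genes. That gene was Flna, an actin crosslinker of many cell types, at 36.4 ± 7.64 and 49.8 ± 2.73 CPM without overlap (log2 difference of 0.45 ± 0.11, edgeR adjusted p = 0.0304). Control replicate 1, 2 or 3 or ketogenic replicate 2, when left out, ended the Flna call (0.0538 to 0.11), and correction for GC content and length did not (0.036). Pex5l, which encodes the main auxiliary subunit of HCN channels, had a log2 difference of -0.05 ± 0.06. Of the 4 genes of the sodium leak channel complex 0 passed in edgeR or DESeq2, with 0 at an unadjusted p under 0.05. The pore gene Nalcn had the smallest p (log2 difference of -0.10 ± 0.06, edgeR adjusted p = 0.282).

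The number of members called moved with the processing, as did the share of all tested genes. With 1 library left out, members called in either direction and the share of all genes were 0 and 0.971% without control replicate 1, 0 and 1.36% without control replicate 2, 0 and 2.81% without control replicate 3, and 4 and 12.7% without control replicate 4. They were 1 and 3.91% without ketogenic replicate 1, 0 and 1.31% without ketogenic replicate 2, 3 and 4.75% without ketogenic replicate 3, and 0 and 3.58% without ketogenic replicate 4. Leaving out ketogenic replicates 3 and 4 together gave 0 and 0.592%. Members called were 2 with other scalings or filters, where the share of all genes was 6.53% with DESeq2 size factors, 6.73% with library size alone, 6.67% with upper quartile factors, 5.82% with no count filter and 7.95% at a mean CPM of at least 1. limma-voom gave 1 and 5.83%, and limma on FPKM gave 0 members, with 3.28% of all genes at a pseudocount of 1, 0.356% at that pseudocount with no filter and 3.76% at 0.1. Correction for length gave 2 and 4.93%, and correction for GC content and length 0 and 2.07%. A block on the replicate number gave 6 and 10.3%, or 4 and 8.8% with the correction for length, and an adjusted p under 0.1 gave 7 and 13.5%.

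Channel subunit genes are long, with a median length of 8404.5 bases as implied by the deposited tables, where that over tested genes is 3666 bases. Of the 34 tested members 21 were among the longest 20% of genes. In the plot of adjusted p across settings, 5 members passed in at least 1 setting and none of these in every setting.

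**Figure D5:**
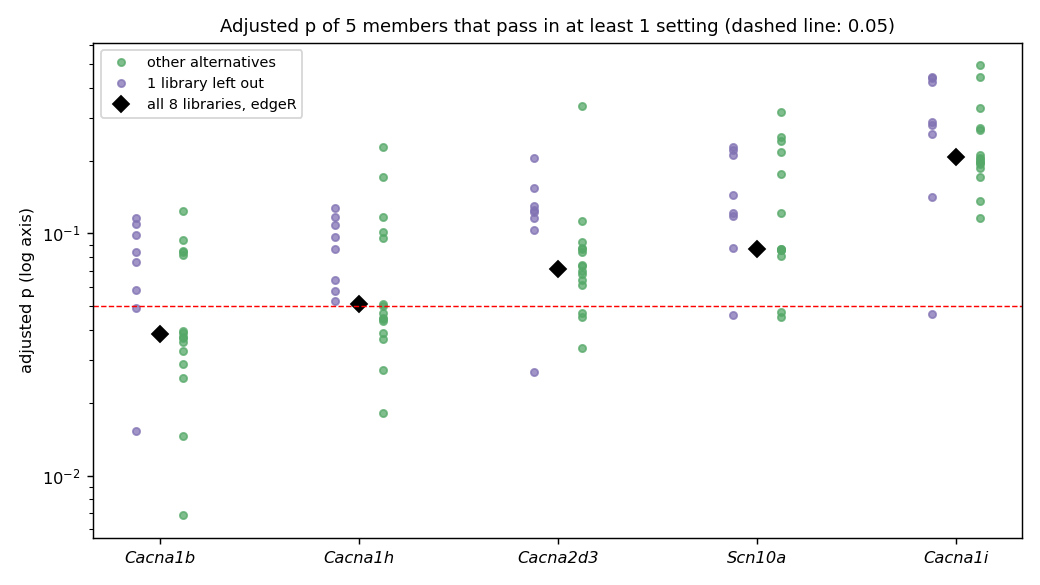
Adjusted p (log axis) of 5 channel subunit genes that pass 0.05 (dashed line) in at least 1 setting, with diamonds for edgeR on all 8 libraries, purple points for fits with 1 library left out and green points for the other alternatives. The Cacna1b points lie on both sides of the line, between 0.0068 and 0.123.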

How the data were processed

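Messenger RNA of 8 brain libraries was sequenced, from 1.3 ug of total RNA each per the labels' protocols. The authors deposited raw counts per gene symbol, and FPKM values that, tested on the files, equal those counts over a constant length for each gene and the library's total. The submitters' processing notes list GRCm38 and mm10; no source used here gives the aligner, counter, strand setting or annotation.

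Counts were fitted with edgeR 4.0.16 (TMM scaling, default filterByExpr filter, quasi-likelihood F test, intercept and diet), with Benjamini-Hochberg adjustment over 14895 genes. The SE was the log2 difference over the square root of F. For 19 marker lists, summed CPM entered exact permutation tests. The code was tested on simulated data.

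Alternatives were other scalings and filters, DESeq2 1.42.0, limma 3.58.1 (voom, and log2(FPKM + 1) and log2(FPKM + 0.1)), a replicate block, libraries left out, and each library's loess trend (span 0.3) on length, or on GC content and length, removed as an offset. Members and lists were chosen with earlier results of these data known. Named by rule are genes past the threshold, the highest member of each family, the 3 nearest the threshold, untested members, and passing or lowest-p partner genes. Some members are not reported here by name. All other genes were named after their values were seen.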

Additional observations from a re-analysis of the deposited data

Results flagged for a closer look

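Of 62 groups of 4 CPM values (31 genes in 2 diets), 3 held a library far from the other 3 by Dixon's test at 95%, where chance gives about 1 in 20 groups. Cacna1c in control replicate 4 was at 116 CPM, with the other control libraries between 110.5 and 111 CPM. Cacna1c in ketogenic replicate 1 was at 124 CPM, with the others between 112 and 114 CPM. Scn11a in ketogenic replicate 3 was at 0.32 CPM, from 12 counts, with the others between 0.61 and 0.67 CPM.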

How the results depend on the processing

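Channel subunit genes higher, 1 with all libraries, were 2 with each of the other 3 scalings (upper quartile, library size, DESeq2 size factors), the other 2 filters (none, or 1 CPM on average) and correction for length (Cacna1b and Cacna1h each time). They were 4 with the DESeq2 Wald test, 5 at an adjusted p under 0.1, 0 with the 3 limma fits on FPKM, 0 after correction for GC content and length, 0 without ketogenic replicates 3 and 4, and 0 to 3 with 1 library left out. Those lower, 0 with all libraries, were 2 at an adjusted p under 0.1 and 0 to 1 with 1 library left out. Partner genes higher, 3 with all libraries, were 5 with the DESeq2 Wald test, 6 at an adjusted p under 0.1, 1 with each limma fit on FPKM, 1 after correction for GC content and length, 0 without ketogenic replicates 3 and 4, and 1 to 5 with 1 library left out. Partner genes lower, 1 with all libraries, were 3 with the DESeq2 Wald test and at an adjusted p under 0.1, and 0 to 5 with 1 library left out. They were 0 with DESeq2 size factors, limma-voom, the limma fits on FPKM, either correction, and without ketogenic replicates 3 and 4. Apart from the corrections and the fits with fewer libraries, the cause of these moves was not tested.

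With a replicate block 5 members were higher and 1 lower, and 4 partner genes were lower; with the block and correction for length 4 members were higher and 2 partner genes lower. The labels do not say what a replicate number shares, deviations of same-numbered libraries had correlations of 0.02 to 0.08, and 2 of 4 control libraries correlated best with their own number, so the numbers are not taken to pair the libraries. The sign of the fitted difference held in every alternative fitted for 19 of the 34 tested members (all 23 alternatives for 17, and 22 for Scn10a and Scn11a, which the filter at 1 CPM left out), and the other 15 passed in no setting. Depth limits members under 1 CPM, such as Scn10a, whose DESeq2 adjusted p was not given.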

Other observations

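The gene length behind the deposited FPKM decides which gene is listed as most abundant within the Cav2 and the alpha2delta genes. For Cacna1e the implied length was 53737 bases, against 14921 bases in the GENCODE M21 transcript with its longest coding sequence, and for Cacna2d1 it was 22438 against 3933 bases. Per implied length Cacna1e had the lowest mean level of the Cav2 genes, at 6.16 CPM per kilobase against 16.6 for Cacna1a and 9.84 for Cacna1b. Per transcript length it had the highest, at 22.2 against 18.6 for Cacna1a and 15.8 for Cacna1b. Cacna2d1 had 11.7 CPM per kilobase of implied length, against 26.6 for Cacna2d3 and 14.0 for Cacna2d2. Per kilobase of transcript it had 66.9, against 27.4 for Cacna2d3 and 14.3 for Cacna2d2. A gene's share of its family depends on these lengths. The difference between diets fitted to counts used no length, unlike the corrections for length and the fits on FPKM.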
